A study of Mus musculus with 12 samples.

Results

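The developmental pluripotency associated (Dppa) genes are named together because their transcripts mark pluripotent cells of the early mouse embryo and its germ line. They were taken here by their symbols: Dppa2, Dppa3, Dppa4 and Dppa5a, 4 of the 23503 genes of the deposited RNA-seq table. All 4 passed the filter for testing, which asked for at least 1 FPKM in at least 4 of the 12 libraries, as 12329 genes did. FPKM counts fragments relative to transcript length and to the library's total, which puts genes as well as libraries on one scale. Levels set side by side between genes are approximate here, because for 3 of the members the deposited value often lay above its own upper bound. The table's other Dppa gene, Dppa1, had at most 0.0379 FPKM in any library and was not tested.

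The members do different things in the cell. DPPA2 and DPPA4 are SAP-domain proteins that bind chromatin as a pair, from adjacent genes; in mouse embryonic stem cells (ESCs) they are known to keep promoters of developmental genes free of DNA methylation and to be needed for Dux and other genes of the 2-cell embryo to be switched on. DPPA3, also called STELLA or PGC7, is a maternal protein of the oocyte and zygote that protects DNA from demethylation there, binds the maintenance factor UHRF1, and marks primordial germ cells and the inner cell mass. DPPA5A, also called ESG1, is an RNA-binding KH-domain protein, one of a small family with the oocyte proteins OOEP and KHDC3.

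The 12 libraries were made from mouse ESCs and form 3 groups of 4. Tfcp2l1 knockout ESCs were cultured in 2i, a serum-free medium that holds LIF (1000 units/mL), a GSK3 inhibitor (CHIR99021, 3 µM) and a MEK inhibitor (PD0325901, 1 µM). Wild-type ESCs were cultured in the same 2i medium, and another group of wild-type ESCs with LIF (1000 units/mL) in serum medium, which held 15% fetal bovine serum (FBS). Tfcp2l1 encodes a transcription factor of naive pluripotency; how the knockout was made, and from how many clones, is not given in the sources used here, and no knockout library was grown in FBS. The study's design text asks for the knockout against wild type in 2i and for 2i against FBS in wild type. The knockout in 2i was also set against wild type in FBS to order the 3 levels; in that comparison genotype and medium both differ, and their effects cannot be told apart.

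Tfcp2l1 itself ranged over 72.0 to 84.7 FPKM in knockout 2i libraries and 112 to 143 FPKM in wild-type 2i libraries, with means of 78.9 ± 5.92 and 132 ± 13.8 FPKM (SD, n = 4 each), so its transcript was at 59.8% of the wild-type level (log2 difference -0.73 ± 0.10 SE, limma adjusted p = 0.000119). All 7 ESC marker genes passed the filter. Fibroblast markers also differed between groups: 17 of the 19 tested were higher in knockout than in wild-type 2i libraries and none was lower, and the 20 on the list summed to 416 to 705 FPKM in knockout 2i, 226 to 362 FPKM in wild-type 2i and 116 to 165 FPKM in wild-type FBS libraries. Of 6 tested markers of parietal and visceral endoderm, 2 were higher and 1 lower in the knockout. Among all tested genes, 24% were higher and 21.4% lower between knockout and wild type in 2i. Of 9 oocyte markers, 1 passed the filter, Oosp1 was at 0 in every library, and the list summed to 5.25 to 5.67 FPKM in knockout 2i, 2.76 to 4.07 FPKM in wild-type 2i and 5.52 to 10.5 FPKM in wild-type FBS libraries. The genes of chromosome 6, which carries Dppa3, shifted together between libraries. The median deviation of their log2(FPKM + 1) values ranged over 0.376, from -0.165 in FBS replicate 3 to 0.211 in wild-type 2i replicate 4, against at most 0.132 for any other chromosome. Between knockout and wild type in 2i, chromosome 6 genes had a median difference of -0.145.

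The members spanned a wide range of levels. Dppa5a was the 5th most abundant of the 12329 tested genes in knockout 2i and in wild-type 2i libraries and the 11th in wild-type FBS libraries, and it made up 90.9% to 96.1% of the summed FPKM of the 4 members in a library. The other 3 genes lay between about 10 and 70 FPKM. In knockout 2i libraries Dppa3, Dppa2 and Dppa4 averaged 58.5, 53.1 and 42.9 FPKM, and the libraries of each neighbouring pair in that order overlapped. Wild-type 2i libraries had Dppa2 and Dppa4 at means of 48.4 and 37.5 FPKM, with overlapping libraries, and Dppa3 below both at 12.3 FPKM. Wild-type FBS libraries had Dppa4 and Dppa3 at 50.2 and 47.7 FPKM, again overlapping, and Dppa2 below both at 26.2 FPKM.

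**Figure D1:**
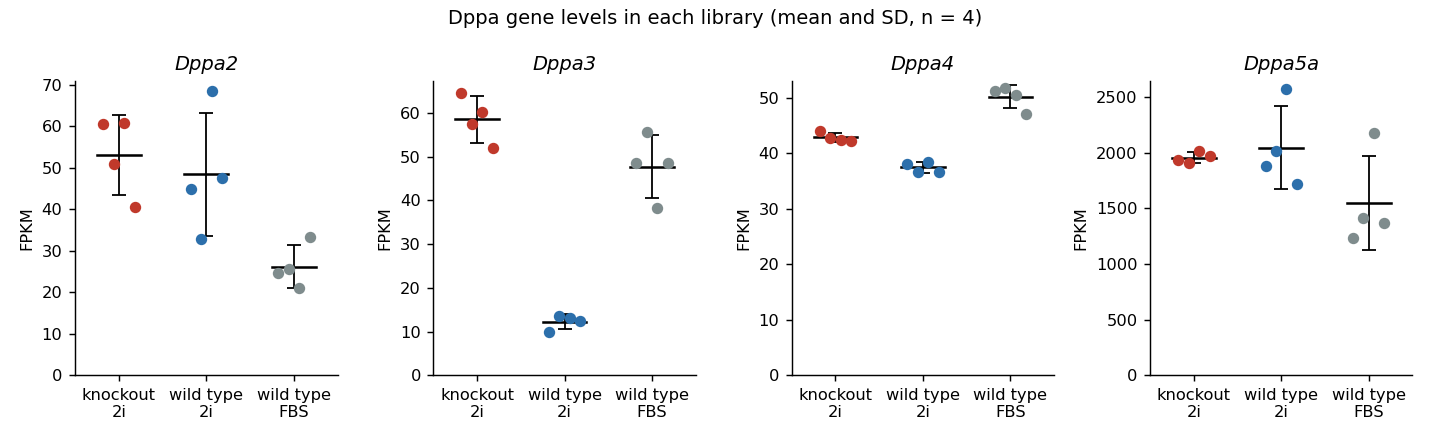
FPKM of each Dppa gene in every library, with a panel per gene; points are libraries, bars the group mean and SD (n = 4), and groups run from knockout 2i through wild-type 2i to wild-type FBS. The Dppa3 wild-type 2i libraries, at 9.86 to 13.7 FPKM, sit below all other libraries, while the Dppa5a libraries lie between 1235 and 2573 FPKM.

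Dppa3 was the member that differed most by genotype. It had 64.5, 57.3, 60.1 and 51.9 FPKM in the knockout 2i libraries (replicates 1 to 4), against 9.86, 13.7, 13.1 and 12.4 FPKM in the wild-type 2i libraries. The lowest knockout library was far above the highest wild-type library. The means were 58.5 ± 5.27 and 12.3 ± 1.69 FPKM, a ratio of 4.77. The log2 difference on the log2(FPKM + 1) scale was 2.17 ± 0.11 SE (95% interval 1.92 to 2.42, limma adjusted p = 5.44e-08). The two-sided exact permutation test gave p = 0.0286, its lower limit with 4 libraries against 4. By that difference Dppa3 was 12th from the top of the 12329 tested genes. In these bulk samples, more cells with the transcript and more transcript per cell cannot be told apart.

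In wild-type ESCs Dppa3 was lower in 2i than in FBS. It had 48.4, 55.6, 38.2 and 48.5 FPKM in the FBS libraries (47.7 ± 7.14, SD, n = 4), so the 2i mean was 25.7% of the FBS mean and no 2i library reached any FBS library. The log2 difference of 2i minus FBS was -1.87 ± 0.11 SE (95% interval -2.12 to -1.62, adjusted p = 1.84e-08; exact permutation p = 0.0286). Set against wild type in FBS, the knockout in 2i was 1.23 times as high, with overlapping libraries, a log2 difference of 0.30 (95% interval 0.05 to 0.55, adjusted p = 0.0358) and an exact permutation p of 0.0571. That call was lost without knockout replicate 1, 2 or 3 or FBS replicate 1, 3 or 4 (log2 difference 0.20 to 0.31, adjusted p 0.0542 to 0.111). Dppa3 thus had 1 low group, wild type in 2i, and 2 groups near each other.

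Dppa3 was also computed with the chromosome 6 shift removed and, separately, with the fibroblast marker level in the model. The mean log2(FPKM + 1) of the fibroblast markers did not overlap between groups. It was 3.49 to 4.16 in knockout 2i, 2.82 to 3.34 in wild-type 2i and 2.29 to 2.64 in wild-type FBS libraries. The term follows the groups, so its effect cannot be told apart from genotype or medium, whether a difference passed with it or not. With each library's chromosome 6 offset removed, the knockout minus wild-type difference in 2i was 2.31 (adjusted p = 2.49e-08), that of 2i minus FBS -2.0 (adjusted p = 8.4e-09) and that of knockout 2i minus FBS 0.31 (adjusted p = 0.0269). With the fibroblast marker level as a term of the model, the first was 2.25 (adjusted p = 8.93e-05) and the second -1.81 (adjusted p = 1.29e-05), while the third, 0.44, no longer passed (adjusted p = 0.41).

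The Dppa3 value rests on the entry NM_139218, at chr6:122576442-122580289 on mm9. The mouse genome also holds a Dppa3 pseudogene, Dppa3-ps, on the X chromosome, which has no entry of its own in the deposited table. In the GENCODE vM21 transcripts (GRCm38), 451 of the 453 coding bases of Dppa3 align to it and 98.2% of them are identical; 135 of the 784 windows of 50 bases in the Dppa3 transcript, or 17.2%, occur whole in the pseudogene. Reads from those windows could come from either copy, so the Dppa3 level is uncertain by whatever the pseudogene adds. The 60 bases below are a coding stretch within a single exon, chosen for the most differing positions. Capitals mark the 3 positions that differ, and the other 57 match. Of the 451 aligned coding bases 443 are identical, so differing positions also lie outside this stretch.
Dppa3, GRCm38 chr6:122628606-122628665, plus strand: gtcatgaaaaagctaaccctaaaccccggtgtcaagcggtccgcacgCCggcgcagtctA
Dppa3-ps, GRCm38 chrX:37625923-37625982, minus strand: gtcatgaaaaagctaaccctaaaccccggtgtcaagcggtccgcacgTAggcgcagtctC

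Dppa4 differed in the same directions as Dppa3 between genotypes and between media, by far less. Its entries, NM_028610 and NM_001018002, share the locus chr16:48283848-48294405 (mm9); the second carried 0.102 to 0.498 FPKM, and the values here are sums of both. Dppa4 had 44.0, 42.7, 42.5 and 42.3 FPKM in knockout 2i, against 38.1, 36.7, 38.5 and 36.7 FPKM in wild-type 2i and 51.2, 51.8, 50.5 and 47.2 FPKM in wild-type FBS. The 3 groups formed 3 separate bands with no shared value. Replicates were close together, with a coefficient of variation of 1.88% in knockout 2i, 2.48% in wild-type 2i and 4.14% in FBS libraries.

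The knockout mean for Dppa4 was 1.14 times the wild-type mean in 2i (log2 difference 0.19 ± 0.04 SE, 95% interval 0.11 to 0.27, adjusted p = 0.00177, exact permutation p = 0.0286). With the fibroblast marker level as a term of the model, the difference was 0.20 and did not pass (adjusted p = 0.0872). In wild type the 2i mean was 74.7% of the FBS mean (log2 difference -0.41 ± 0.04 SE, adjusted p = 8.2e-07, exact permutation p = 0.0286). Between knockout 2i and wild-type FBS libraries the log2 difference was -0.22 (95% interval -0.31 to -0.14, adjusted p = 0.000247), and -0.20 with the fibroblast marker level in the model (adjusted p = 0.253). The knockout level thus lay between the wild-type levels of both media.

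Dppa2, the partner gene, varied more and went the other way between media. It lies at chr16:48310387-48319626 (mm9, NM_028615), 25.9 kb from Dppa4 between gene centres. Dppa2 had 60.4, 50.9, 60.8 and 40.5 FPKM in knockout 2i, against 44.8, 32.8, 68.5 and 47.6 FPKM in wild-type 2i. The genotypes overlapped across most of their range, and the log2 difference was 0.16 ± 0.20 SE (95% interval -0.27 to 0.59, adjusted p = 0.536, exact permutation p = 0.543). Differences of up to about 0.59 are therefore inside the interval, more than the difference measured for Dppa4.

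In wild-type FBS libraries Dppa2 had 24.6, 25.7, 21.1 and 33.3 FPKM. The wild-type 2i mean was 1.85 times the FBS mean (48.4 ± 14.8 against 26.2 ± 5.14 FPKM; log2 difference 0.83 ± 0.20 SE, 95% interval 0.40 to 1.27, adjusted p = 0.00213). The lowest 2i library, at 32.8 FPKM, lay just under the highest FBS library, at 33.3 FPKM, and the exact permutation p was 0.0571. Knockout 2i libraries were all above the FBS libraries, with a log2 difference of 1.00 (95% interval 0.56 to 1.43, adjusted p = 0.000714, exact permutation p = 0.0286); with the fibroblast marker level in the model it was 1.29 and did not pass (adjusted p = 0.159).

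The paired levels of Dppa4 and Dppa2 shifted with the medium and not detectably with the genotype. The ratio of Dppa4 to Dppa2 FPKM was 0.729, 0.839, 0.699 and 1.04 in knockout 2i libraries, against 0.850, 1.12, 0.562 and 0.770 in wild-type 2i libraries and 2.08, 2.02, 2.40 and 1.42 in wild-type FBS libraries. Both 2i groups scattered around slightly less Dppa4 than Dppa2, and every FBS library had more Dppa4. The mean ratio was 0.828 ± 0.156 in knockout 2i, 0.825 ± 0.231 in wild-type 2i and 1.98 ± 0.410 in wild-type FBS libraries (SD, n = 4). On the log2 scale 2i minus FBS in wild type was -1.28 and knockout 2i minus FBS -1.25 (exact two-sided permutation p = 0.0286 each, 0.0429 adjusted over 3 comparisons), and knockout minus wild type in 2i was 0.03 (p = 0.971).

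**Figure D2:**
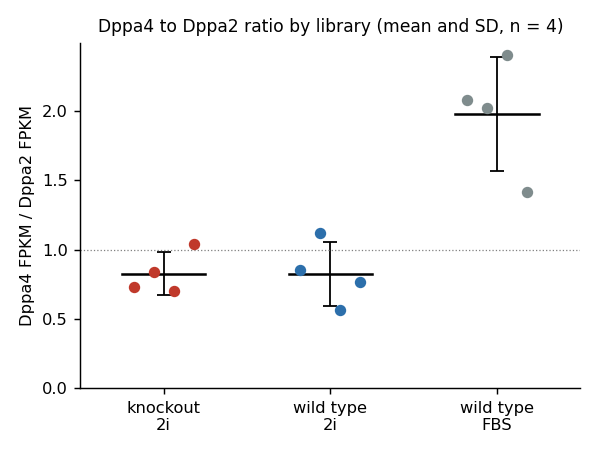
Ratio of Dppa4 to Dppa2 FPKM in every library, by group from knockout 2i through wild-type 2i to wild-type FBS; lines are the mean and SD (n = 4), and the dotted line marks equal levels. The highest 2i library, at 1.12, is below the lowest FBS library, at 1.42.

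Dppa5a, the most abundant member, averaged 1958 ± 48.0 FPKM in knockout 2i and 2047 ± 372 FPKM in wild-type 2i libraries (SD, n = 4). It had 1936, 1905, 2016 and 1975 FPKM in knockout 2i, against 1878, 2019, 2573 and 1717 FPKM in wild-type 2i and 1235, 1417, 2175 and 1371 FPKM in wild-type FBS. The knockout libraries were tightly grouped, and replicate 3 was the highest of each group. The coefficient of variation was 2.45% in knockout 2i, 18.2% in wild-type 2i and 27.4% in FBS libraries. The authors' interval gives no usable precision here: its upper bound lay below the deposited FPKM of Dppa5a in all 12 libraries, of Dppa2 in 10 and of Dppa3 in 9, while the Dppa4 values lay inside theirs. In wild-type 2i replicate 1 the bounds of Dppa5a were 1346 and 1394 FPKM. The mismatch differs between genes, so levels compared between members, the Dppa5a share and the size of the Dppa4 to Dppa2 ratio carry an error that was not estimated.

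For Dppa5a the knockout minus wild-type log2 difference in 2i was -0.05 ± 0.16 SE (95% interval -0.38 to 0.29, adjusted p = 0.824), and the libraries overlapped. Without wild-type 2i replicate 3 it was 0.07 (adjusted p = 0.725). The wild-type 2i mean was 132% of the FBS mean (FBS mean 1550 ± 424 FPKM, log2 difference 0.42 ± 0.16 SE, adjusted p = 0.0268), but the libraries overlapped and the exact permutation p was 0.114. This call was lost without wild-type 2i replicate 3 (0.30, adjusted p = 0.0821) and without FBS replicate 1 (0.32, adjusted p = 0.0878), 2 (0.39, adjusted p = 0.0638) or 4 (0.37, adjusted p = 0.0711). Knockout 2i minus wild-type FBS gave 0.37 (adjusted p = 0.0488, exact permutation p = 0.143); that call was lost when any library other than wild-type 2i replicate 3 or 4 or FBS replicate 3 was left out (log2 difference 0.28 to 0.39, adjusted p 0.0576 to 0.147).

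Dppa5a, too, has pseudogene copies. Its entry, NM_025274, lies at chr9:78214861-78216006 (mm9), and the reference annotation places the pseudogenes Dppa5b and Dppa5c on the same chromosome; neither has an entry in the deposited table. In the GENCODE transcripts 343 of the 357 coding bases of Dppa5a align to each of them at 91.2% identity. Of the 570 windows of 50 bases in the Dppa5a transcript 57, or 10%, occur whole in the copy. The stretch below is a coding stretch within a single exon, again chosen for the most differing positions, and capitals mark the 5 of 60 that differ. Of the 343 aligned coding bases 313 are identical, so differing positions also lie outside it. Dppa5c, at chr9:78272272-78272331 on the plus strand, has the same letters as Dppa5b.
Dppa5a, GRCm38 chr9:78367766-78367825, minus strand: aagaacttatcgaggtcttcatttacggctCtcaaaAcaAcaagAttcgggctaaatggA
Dppa5b, GRCm38 chr9:78245824-78245883, plus strand: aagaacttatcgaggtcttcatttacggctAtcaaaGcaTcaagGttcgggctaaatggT

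Counted together, 2 of the 4 members were called between knockout and wild type in 2i, Dppa3 and Dppa4, both higher and both with groups that did not overlap; of all tested genes 45.3% were called, 24% higher and 21.4% lower, and 44.1% had groups that did not overlap. All 4 were called between 2i and FBS in wild type, Dppa2 and Dppa5a higher and Dppa3 and Dppa4 lower, and the groups of Dppa3 and Dppa4 did not overlap; of all tested genes 72.4% were called, 37.1% higher and 35.3% lower, and 62.5% did not overlap. All 4 were called as well between knockout 2i and wild-type FBS, 3 higher and Dppa4 lower, with no overlap for Dppa2 and Dppa4; of all tested genes 66.6% were called, 34.7% higher and 31.9% lower, and 62.8% did not overlap. With shares this high, a call says little about 4 genes. In size, both Dppa3 differences were outside the range of most genes: the middle 90% lay between -0.59 and 0.61 for knockout minus wild type in 2i and between -1.06 and 1.20 for 2i minus FBS. The comparisons share their wild-type 2i libraries, so a low or high value there enters both with opposite sign.

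**Figure D3:**
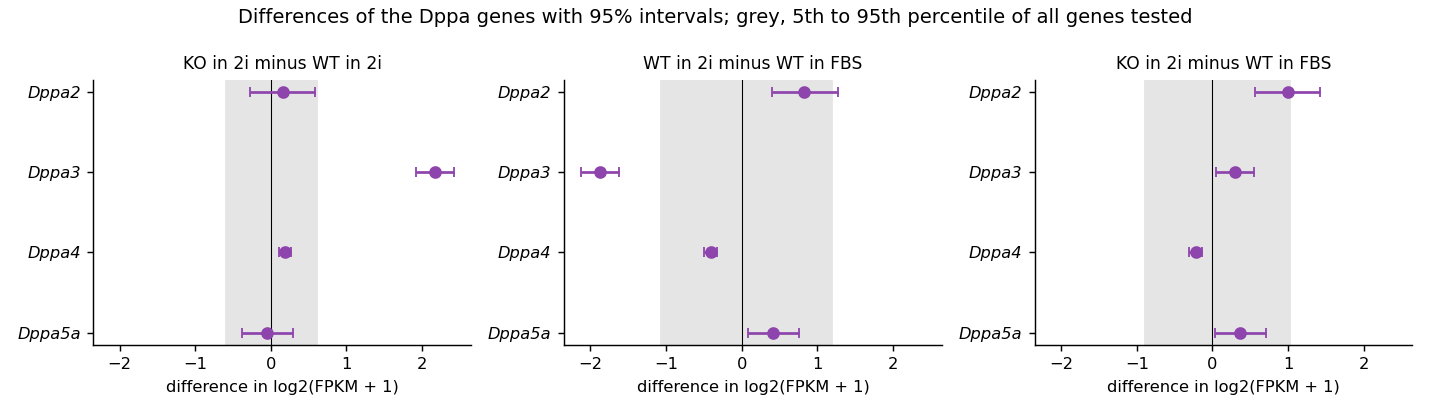
Difference in log2(FPKM + 1) of each Dppa gene in the 3 comparisons, with 95% intervals from the model over all 12 libraries; the zero line means equal levels. Dppa3 stands at 2.17 for knockout minus wild type in 2i and at -1.87 for 2i minus FBS in wild type, and the Dppa2 and Dppa5a intervals for knockout minus wild type include 0.

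The genes next to the members did not share one direction. Nanog, the homeobox factor of naive pluripotency 82.3 kb from Dppa3, averaged 390 FPKM in knockout 2i, 578 FPKM in wild-type 2i and 212 FPKM in wild-type FBS libraries; it fell in the knockout (log2 difference -0.57, adjusted p = 1.64e-06) and was higher in 2i than in FBS (1.44, adjusted p = 8.61e-11). Gdf3, a TGF-beta family ligand 20.6 kb away on the other side, had 0.05 in the knockout comparison (adjusted p = 0.677) and 0.38 in the medium comparison (adjusted p = 0.0016). Slc2a3, a glucose transporter gene 107 kb away, had 0.04 (adjusted p = 0.866) and 0.47 (adjusted p = 0.0153). Mfap5, which encodes a microfibril protein, was called with the signs of Dppa3 in both, 0.58 (adjusted p = 0.00132) and -0.47 (adjusted p = 0.00201), at 1.24 to 2.34 FPKM on average. With the fibroblast marker level in the model its knockout difference was 0.37 (adjusted p = 0.228). The values of these chromosome 6 neighbours still hold that chromosome's shift, with a median of -0.145 between genotypes in 2i and 0.125 between media in wild type.

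On chromosome 16, Morc1, a gene of germ-line transposon silencing 216 kb beyond Dppa2, had -0.21 for knockout minus wild type (adjusted p = 0.103) and 0.93 for 2i minus FBS (adjusted p = 2.76e-06), and Dzip3 had -0.24 (adjusted p = 0.013; 0.349 with the fibroblast marker level in the model) and 0.94 (adjusted p = 9.49e-08). Cip2a and Nectin3 were lower in 2i than in FBS (-0.41, adjusted p = 1.94e-05, and -0.66, adjusted p = 1.53e-05), as Dppa4 was, and did not pass between genotypes. Beside Dppa5a, Ooep, the KH-domain gene of the oocyte's subcortical maternal complex 10.1 kb away, averaged 91.3 FPKM in knockout 2i, 148 FPKM in wild-type 2i and 64.9 FPKM in wild-type FBS libraries. Ooep fell in the knockout (-0.70, adjusted p = 8.24e-05), where Dppa5a had -0.05, and was higher in 2i than in FBS (1.19, adjusted p = 1.37e-07). Gsta4, a glutathione transferase gene on the other side, also fell in the knockout (-0.56, adjusted p = 1.97e-05).

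**Figure D4:**
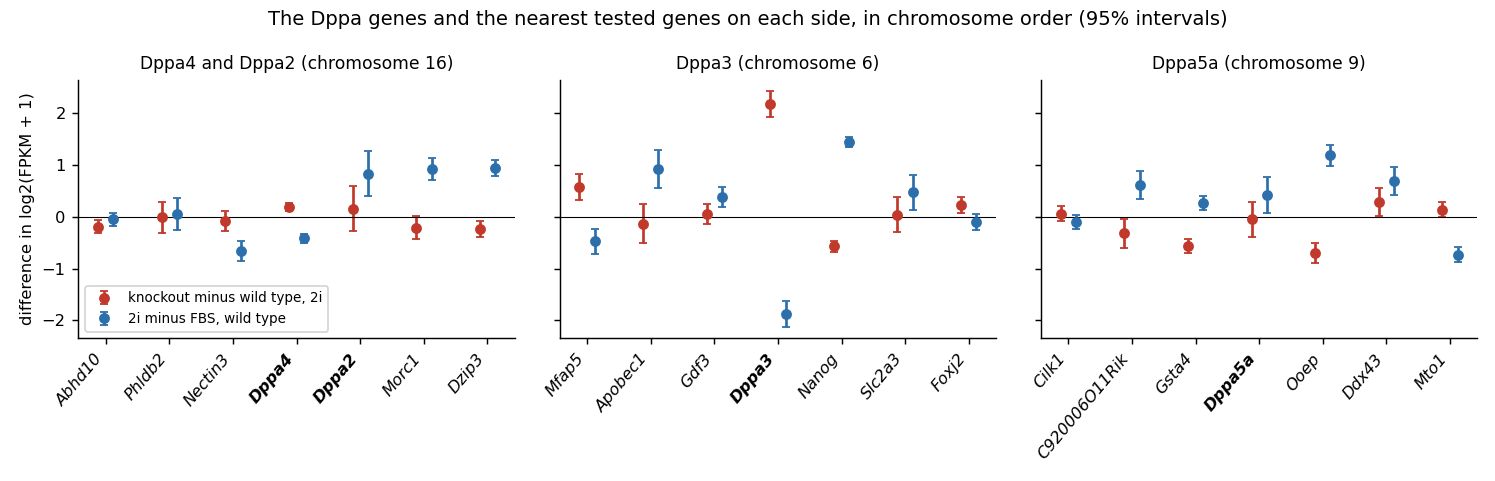
Differences in log2(FPKM + 1) with 95% intervals for the Dppa genes and the nearest tested genes on each side, in chromosome order (not to scale) in a panel per locus; red points are knockout minus wild type in 2i and blue points 2i minus FBS in wild type. Dppa3 lies between Gdf3 (0.05 and 0.38) and Nanog (-0.57 and 1.44) and has the opposite signs of Nanog in both.

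The genes closest in pattern to each member were found by the root mean square (RMS) difference between log2(FPKM + 1) profiles, each centred on its mean over the 12 libraries, with a smaller value meaning closer; they are descriptions with no test. Dppa3, whose own profile had an RMS size of 0.974, was nearest to Selenop (RMS difference 0.211), the gene of a secreted selenium carrier, at means of 10.5 FPKM in knockout 2i, 1.79 FPKM in wild-type 2i and 10.1 FPKM in wild-type FBS libraries. Lef1, a Wnt-pathway transcription factor gene, followed at 0.314, with means of 8.61, 1.19 and 5.01 FPKM in the same order of groups, and then Sh3bgrl at 0.339. Nearest to Dppa5a (RMS size 0.289) was Klf2, a Krüppel-like factor gene of naive pluripotency, at 0.144, with means of 221 FPKM in knockout 2i, 227 FPKM in wild-type 2i and 162 FPKM in wild-type FBS. For Dppa2 (RMS size 0.521) the nearest were Tchh at 0.172 and Zfp809 at 0.176, and for Dppa4 (RMS size 0.172) Rpgrip1l at 0.0314 and Heatr6 at 0.0327. Dppa4 had the smallest own size of the members, and a flat profile would differ from it by that size. Its 2 nearest genes changed little but in the same directions. Rpgrip1l and Heatr6 had log2 differences of 0.20 and 0.15 for knockout minus wild type in 2i. For 2i minus FBS in wild type they had -0.44 and -0.38, with Rpgrip1l at 0.66 to 1.25 FPKM on average.

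Genes related to the members, or to processes they are known for, were counted from fixed lists, beside a median of 0.01 over all tested genes in each comparison. Among all tested genes, 24% were higher and 21.4% lower between knockout and wild type in 2i. The shares were 37.1% and 35.3% between 2i and FBS in wild type, and 34.7% and 31.9% between knockout 2i and wild-type FBS. A count near these shares says little about its list. Of 16 tested 2-cell-like genes, the class that DPPA2 and DPPA4 act on in mouse ESCs, 11 were higher in knockout than in wild-type 2i libraries and none lower (median log2 difference 1.05). Duxf3, the Dux gene that starts this programme, averaged 7.45 ± 1.31 FPKM in knockout 2i and 3.33 ± 1.77 FPKM in wild-type 2i libraries (1.05, adjusted p = 0.0039), and Usp17ld and Usp17lb, deubiquitinase genes of that stage, had 1.03 (adjusted p = 0.00642) and 1.05 (adjusted p = 0.00726). Eif1a had 0.01 (adjusted p = 0.906). It averaged 110 FPKM in knockout 2i, 109 FPKM in wild-type 2i and 80.0 FPKM in wild-type FBS libraries. That FBS level was far above those of the other genes of the list named here, so it is unlike them. Many of these genes have near-identical copies that share reads, so single values are uncertain. The count was 3 with a pseudocount of 0.1 and 1 with 0.01, and 6 without wild-type 2i replicate 2 or 4 and 7 without knockout replicate 1.

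All 16 tested genes were higher in wild-type 2i than in wild-type FBS libraries (median 2.36), as they were in knockout 2i against FBS (median 3.46). For 9 of them, Duxf3 and Tmem92 included, no FBS library reached 1 FPKM, so they passed the filter only through the 2i groups and these counts and medians are no support for the direction. Zscan4a, a telomere-associated zinc finger gene, averaged 28.1 FPKM in wild-type 2i and 1.15 FPKM in wild-type FBS libraries (3.64, adjusted p = 3.98e-06). Tmem92, among those 9, averaged 22.8 and 0.445 FPKM in the same groups, and its test is no support for the direction either.

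Of 15 genes of DNA methylation and demethylation, the process tied to DPPA3, 5 were higher and 3 lower in knockout than in wild-type 2i libraries (median 0.07). Uhrf1, whose protein DPPA3 binds, averaged 80.7 FPKM in knockout 2i, 106 FPKM in wild-type 2i and 86.0 FPKM in wild-type FBS libraries, and fell in the knockout (-0.39, adjusted p = 0.000827). Its relative Uhrf2 had 16.6 FPKM in knockout 2i and 10.96 FPKM in wild-type 2i libraries and rose (0.56, adjusted p = 4.04e-05). Dnmt3l, the cofactor of the de novo methyltransferases, had 64.4 FPKM in knockout 2i, 33.0 FPKM in wild-type 2i and 301 FPKM in wild-type FBS libraries (1.00 for the knockout, adjusted p = 0.00135). With the fibroblast marker level in the model, 1 gene of the list stayed higher and 1 lower; Uhrf1 had -0.39 (adjusted p = 0.0694) and Dnmt3l 0.80 (adjusted p = 0.158).

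Between media the same list had 3 higher and 10 lower in wild-type 2i (median -0.30). Dnmt3b, a de novo methyltransferase gene, averaged 10.0 FPKM in wild-type 2i and 103 FPKM in wild-type FBS libraries (-3.25, adjusted p = 4.53e-09), and Tet2, a demethylation enzyme gene, 19.0 and 8.08 FPKM (1.14, adjusted p = 4.28e-09). Mbd3, a subunit gene of the NuRD complex, was lower in 2i (-0.85, adjusted p = 9.33e-09). In knockout 2i against FBS, 2 were higher and 9 lower, or 2 and 5 with the fibroblast marker level in the model.

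Germ cell genes, among which Dppa3 is a usual marker but was not counted, had 9 of 19 tested higher and 3 lower in knockout than in wild-type 2i libraries (median 0.24). Nanos3, an RNA-binding factor of primordial germ cells, averaged 5.76 FPKM in knockout 2i and 1.89 FPKM in wild-type 2i libraries (1.22, adjusted p = 6.35e-05), and Tfap2c, their AP-2 transcription factor, 41.4 and 26.8 FPKM (0.61, adjusted p = 7.52e-05). Dmrt1 also rose (1.26, adjusted p = 8.79e-06), and Sycp3 had 0.09 (adjusted p = 0.626). With the fibroblast marker level in the model 5 genes of this list were higher. Between 2i and FBS in wild type 13 were higher and 4 lower (median 0.65): Kit, the stem cell factor receptor, had 51.7 and 10.4 FPKM (2.22, adjusted p = 1.23e-10) and Prdm14 16.6 and 3.66 FPKM (1.94, adjusted p = 1.78e-08), while Prdm1, a repressor of the somatic programme, had 1.25 and 5.28 FPKM (-1.48, adjusted p = 1.5e-08). In knockout 2i against FBS 16 were higher and 3 lower, or 10 and 1 with the fibroblast marker level in the model; Tex101 and Slc25a31 reached 1 FPKM in no FBS library and so passed the filter only through the 2i groups.

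Only 5 of 11 oocyte KH-domain and maternal complex genes passed the filter. The list's KH-domain genes are relatives of Dppa5a, and its other genes were listed for the oocyte's maternal complex, which holds OOEP. In the knockout comparison 2 were higher, Zbed3 (1.03, adjusted p = 4.73e-06) and Tle6, and 2 lower, Ooep and Nlrp4f (-0.97, adjusted p = 4e-06), with Khdc3 at 0.37 (adjusted p = 0.17). The higher count was 1 without wild-type 2i replicate 1 or 2, knockout replicate 1, 2 or 3 or FBS replicate 1. Between 2i and FBS 2 were higher, Ooep and Nlrp4f (1.14, adjusted p = 1.24e-07), and 2 lower, one of them Tle6 (-0.57, adjusted p = 0.00489); the lower count was 1 without wild-type 2i replicate 1. In knockout 2i against FBS 2 were higher and none lower; with the fibroblast marker level in the model none was higher and 1 lower. That term left 1 higher and 2 lower in the knockout comparison.

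The 11 ES cell-associated transcripts, chosen for their use beside Dppa genes as pluripotency markers, were split. In the knockout 3 were higher and 4 lower (median -0.01): besides Nanog, which fell, Sox15 had 0.66 (adjusted p = 1.07e-05) and L1td1 0.40 (adjusted p = 0.000944), and Fbxo15 0.09 (adjusted p = 0.549). With the fibroblast marker level in the model 1 was higher and 1 lower, and L1td1 had 0.37 (adjusted p = 0.0985). In wild type 5 were higher and 5 lower in 2i than in FBS; Utf1 averaged 60.7 FPKM in wild-type 2i and 382 FPKM in wild-type FBS libraries (-2.64, adjusted p = 6.59e-12), Zfp42 was higher in 2i (0.86, adjusted p = 2.58e-09), and Sox2 had -0.09 (adjusted p = 0.325). In knockout 2i against FBS 4 were higher and 5 lower.

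Naive pluripotency factors, the network that Tfcp2l1 belongs to, had 10 of 16 lower and 1 higher in the knockout (median -0.29), and 14 higher and none lower in wild-type 2i than in FBS (median 1.12). The list includes Tfcp2l1 itself, which is counted among the 10 lower and the 14 higher genes. Its own fall in the knockout is no support for a change of the other factors. With the fibroblast marker level in the model 4 were lower and none higher in the knockout. Without wild-type 2i replicate 3, 1 was lower in wild-type 2i than in FBS. In knockout 2i against FBS 14 were higher and 1 lower, or 10 and none with the fibroblast term. Stat3, the transcription factor of the LIF pathway, fell in the knockout (-0.66, adjusted p = 0.000101), as did Pecam1 (-0.57, adjusted p = 1.51e-05), while Klf2 had -0.03 (adjusted p = 0.826). Among the members, Dppa2 and Dppa5a did not pass between genotypes and were called higher in 2i, whereas Dppa3 and Dppa4 rose in the knockout and were lower in 2i. For Dppa2 and Dppa5a the wild-type libraries of both media overlapped (exact permutation p = 0.0571 and 0.114). With the fibroblast term the Dppa4 difference between genotypes did not pass (limma adjusted p = 0.0872).

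**Figure D5:**
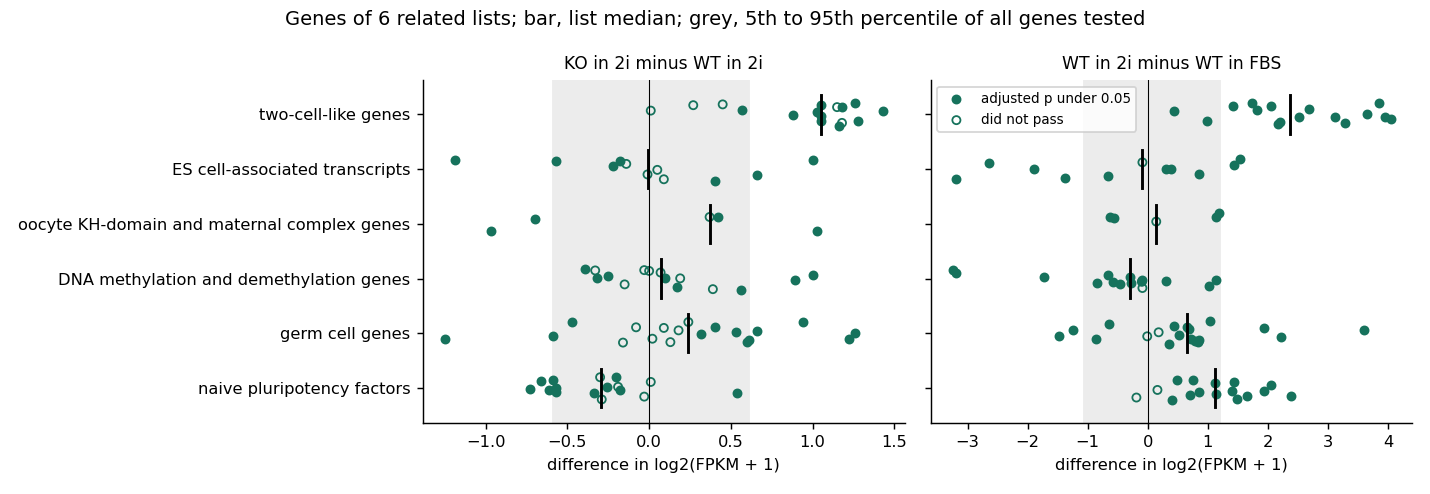
Differences in log2(FPKM + 1) of the genes of the 6 lists, for knockout minus wild type in 2i (left) and 2i minus FBS in wild type (right); filled points passed an adjusted p of 0.05, open points did not, bars are list medians and grey bands span the middle 90% of all tested genes. The 2-cell-like genes have medians of 1.05 and 2.36, and the naive factors, Tfcp2l1 among them, -0.29 and 1.12. Of the 2-cell-like genes, 9 passed the filter only through the 2i groups, so the 2.36 is no support for a direction.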

How the data were processed

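The tools named in the submitters' processing notes are CASAVA 1.8.2 and Cufflinks, and the build is mm9; the aligner and the Cufflinks version are not given in the sources used here, nor how reads shared by near-identical copies were divided. Per the file headers, the authors deposited an FPKM for each RefSeq transcript, a lower and upper bound in FPKM, and a status. The bounds often left out the value itself and were not used as its error. Read depth is unknown, so no count test was used. Symbols from RefSeq and GENCODE vM21 tables covered 98.8% of 30761 entries, and entries of a symbol were summed. A total of 7 symbols with a failed estimate in some library, listed at 0, were left out. FPKM summed to 347772 to 358340 per library.

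A limma 3.58.1 model (R 4.3.3; eBayes with an intensity trend, 1 mean per group, all 12 libraries) was fitted to log2(FPKM + 1) of the 12329 genes that reached 1 FPKM in 4 or more libraries. A gene was called where its two-sided p, adjusted over all genes by the Benjamini-Hochberg method, was under 0.05; adjusted p-values throughout are from limma, and fold differences on this scale understate those of low genes. Exact two-sided permutation tests over 70 splits cannot go below 0.0286. The labels do not say whether replicates are separate cultures; p-values therefore cover only how much these libraries vary, which may be technical variation. Correlations of deviations between same-numbered replicates were 0.0554 to 0.258 between the 2i groups and 0.0266 to 0.186 between the wild-type groups. Between knockout 2i and wild-type FBS they were -0.0295 to 0.081. Because those last ones were not all positive, no pairing was used in the main model. A fit with the replicate number as a block is given below.

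Members and lists were chosen with earlier results of these data known. Named list genes are up to 3 called members with the smallest adjusted p and the highest-expressed member that did not pass, less repeats; for knockout 2i against wild-type FBS, lists are given as counts only. Neighbours are the 3 nearest tested genes per side, not all printed. The fibroblast term is the mean log2(FPKM + 1) of the markers, and the chromosome 6 offset is the median deviation of that chromosome's genes in a library. Alternatives were other pseudocounts, filters, scalings and model settings, and leaving out each library. The model was tested on simulated data. Python 3.11.15 was used.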

Additional observations from a re-analysis of the deposited data

How the results depend on the processing

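Results of the model were recomputed under up to 27 alternatives (single genes under a filter of 5 FPKM only where they reached it), 12 of them leaving out a library and 1 chosen after seeing the data, without replicate 3 of both wild-type groups. Knockout minus wild type in 2i for Dppa3, and 2i minus FBS in wild type for Dppa2, Dppa3 and Dppa4, kept direction and call in all of them. The number of genes called was 1916 (knockout minus wild type in 2i) and 2177 (knockout 2i minus wild-type FBS) with the fibroblast marker level in the model, against 5589 and 8212. With that term Dppa4 had 0.20 between genotypes (adjusted p = 0.0872), Dppa5a 0.39 between media (adjusted p = 0.21), and in knockout 2i minus wild-type FBS no member passed: Dppa2 1.29 (0.159), Dppa3 0.44 (0.41), Dppa4 -0.20 (0.253) and Dppa5a 0.32 (0.689), where numbers in parentheses are adjusted p-values here and below. The cause was not tested. The fibroblast marker level did not overlap between groups, so this term cannot be told apart from genotype or medium.

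Between genotypes in 2i, the uncalled Dppa5a difference turned to 0.03 with array weights (0.836) and 0.07 without replicate 3 of both wild-type groups (0.369), and ranged from -0.13 to 0.07 with a library left out; Dppa2 ranged from -0.01 to 0.34. Dppa5a between media did not pass with no filter (0.42, 0.0576) or with the 8 libraries alone (0.42, 0.058), and ranged from 0.30 to 0.60 with a library left out. In knockout 2i minus wild-type FBS, Dppa3 did not pass with no filter (0.30, 0.0588), median-ratio scaling (0.28, 0.0503) or without replicate 3 of both wild-type groups (0.20, 0.106), with leave-out values of 0.20 to 0.37; Dppa5a did not pass with no filter (0.37, 0.0945), median-ratio scaling (0.35, 0.0638) or no intensity trend (0.37, 0.0549), with leave-out values of 0.28 to 0.55. The Dppa4 to Dppa2 ratio was recomputed only with the highest entry per symbol, which changed no call, and with each library of a comparison left out; it cannot pass with a library left out (smallest p 0.0571); its log2 difference was then -1.44 to -1.11 for 2i minus FBS, -1.40 to -1.15 for knockout 2i minus FBS and -0.14 to 0.19 between genotypes.

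Among other genes, sign turned only in values that had not passed: between genotypes Klf2 (0.00 with quantile normalization, 0.11 with the fibroblast term, 0.03 without replicate 3 of both wild-type groups, -0.12 to 0.03 with a library left out), Khdc3 (-0.47 with the fibroblast term) and Eif1a (-0.01 to 0.02 with a library left out); between media Tdrd12 (0.00 with array weights, -0.12 to 0.09 with a library left out) and Zbed3 (-0.13 with the fibroblast term). With the replicate number as a block, 5567, 8899 and 8260 genes were called in the 3 comparisons. No member's call changed (Dppa3 2.17 between genotypes, 1.9e-06). The limma adjusted p of Dppa5a fell from 0.0268 to 0.00494 between media and from 0.0488 to 0.0107 in knockout 2i minus wild-type FBS. It rose for the other members in both comparisons, as for Dppa2 between media (0.00213 to 0.00425). Between the 2i groups 6 of 8 libraries correlated best with their own number. This held for 4 between the wild-type groups and 3 between knockout 2i and wild-type FBS.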
